A study of Mus musculus with 77 samples.

Results

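Nptx1, Nxph1, Ngfr, Acpp, Kcnip3 and Vwa5b2, 6 genes grouped as of a neural type, were followed through mouse pancreatic ductal organoids that expressed Neurogenin3 (Ngn3, gene Neurog3). The 6 were taken from the 46078 genes of the count table. They were chosen by their counts over all groups and single pools, as genes with almost no reads in control cells that were raised with both Ngn3 proteins, so their difference from the controls is described without a test. All organoids were of strain C57BL/6 and carried an inducible lentiviral (Tet-on) vector. At 2 days (2 d) after induction, sorted GFP+ cells carried either GFP alone (GFP-only), WT Ngn3, or the phosphomutant 6S-A Ngn3 in which all 6 serine-proline sites were changed to alanine-proline. At 8 days (8 d), GFP+ cells expressing WT or 6S-A Ngn3 were set against cells without the reporter color from the same WT or 6S-A organoids (no-color). The 8 d series has no GFP-only group, so the control differs between the time points. Each group had 3 biological replicates, at organoid passage 2 except replicate 3 of every 8 d group, which was at passage 5. Expression was driven from a viral vector in cultured adult duct cells, and Neurog3 reads can come from the vector or from the cells' own gene. Both Ngn3 proteins carried an HA tag and were linked to GFP by a 2A peptide.

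Ngn3 is a basic helix-loop-helix transcription factor that starts endocrine differentiation in the pancreas, and its close relatives Ngn1 and Ngn2 start neuronal differentiation. Such factors bind a short DNA motif, the E-box, as dimers, and islet and neuronal cells share much of the machinery for excitability and regulated secretion. NPTX1 (neuronal pentraxin) and NXPH1 (neurexophilin) are secreted proteins that act at synapses, on glutamate receptors and on neurexins respectively. NGFR is the low-affinity receptor for neurotrophins, ACPP is the prostatic acid phosphatase, which on sensory neurons also produces adenosine from AMP, and KCNIP3 is a calcium sensor that acts on Kv4 potassium channels and as a transcriptional repressor known as DREAM. VWA5B2 carries a von Willebrand factor A domain and its function is poorly known.

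Each library was made from 50 sorted cells with Smart-seq2. Library depth was 1501002 to 5632412 gene reads at 2 d (18 libraries in each group) and 849278 to 9202142 at 8 d (5 libraries of WT Ngn3, of which 1 fell under the read limit and was left out, and 6 in each other group). After summing technical repeats, replicates held 17757303 to 26627347 reads at 2 d and 2397470 to 17919627 at 8 d. Levels are CPM values scaled by TMM factors, and values after ± are SDs with n = 3 unless stated otherwise. The ductal identity of the cells was checked first. All 9 ductal markers had reads in every group, with a summed level of 14551 to 16168 CPM in GFP-only cells. The targeted gene followed the labels. Neurog3 was at 133 ± 62.9 CPM in WT and 138 ± 52.5 CPM in 6S-A cells at 2 d, at 22.5 ± 20.99 and 12.7 ± 2.79 CPM at 8 d, and at most 0.992 CPM in any control replicate. In pools of cells, a lower share of expressing cells and less RNA per cell cannot be told apart.

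The 6 genes lie on 5 mouse chromosomes (GENCODE M21 annotation, build GRCm38), and all are protein coding. Nptx1 (ENSMUSG00000025582) spans chr11:119538719-119547753 on the minus strand, and Ngfr (ENSMUSG00000000120) lies on the same strand of that chromosome at chr11:95568818-95587735. Nxph1 (ENSMUSG00000046178) is at chr6:8948431-9249032 on the plus strand. Acpp (ENSMUSG00000032561) is at chr9:104288251-104337748 and Kcnip3 (ENSMUSG00000079056) at chr2:127456498-127522094, both on the minus strand. Vwa5b2 (ENSMUSG00000046613) is at chr16:20589471-20605377 on the plus strand. Its exons share 428 bases with an antisense gene that is not in the count table and 4 bases with Alg3, and whether counting used strand is not stated in the sources used here. No other member has exons that overlap another gene's, while Neurog3 shares 273 bases with Fam241b on the opposite strand.

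Promoter windows of 300 bases, from 250 before to 50 after the start of the transcript, were given in RefSeq (GRCm38.p6) for 5 of the 6 genes. E-boxes (CANNTG, the same on both strands) are shown in capitals because Ngn3 belongs to the factors that bind this motif. Of their 8 windows, 5 hold an E-box. For the 2 genes with several windows, the one with the most E-boxes is printed, which is the first of 3 for Kcnip3 and the second of 2 for Vwa5b2, so the windows shown hold E-boxes more often than those left out (1 of 3).
Nxph1, chr6:8949769-8950068, plus strand: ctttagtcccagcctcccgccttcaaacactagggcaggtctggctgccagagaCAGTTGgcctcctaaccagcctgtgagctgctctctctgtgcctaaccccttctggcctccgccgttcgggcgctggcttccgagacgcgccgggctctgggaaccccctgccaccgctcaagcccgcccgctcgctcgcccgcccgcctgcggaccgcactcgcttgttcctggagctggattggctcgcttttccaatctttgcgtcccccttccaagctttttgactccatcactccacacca
Ngfr, chr11:95587649-95587948, minus strand: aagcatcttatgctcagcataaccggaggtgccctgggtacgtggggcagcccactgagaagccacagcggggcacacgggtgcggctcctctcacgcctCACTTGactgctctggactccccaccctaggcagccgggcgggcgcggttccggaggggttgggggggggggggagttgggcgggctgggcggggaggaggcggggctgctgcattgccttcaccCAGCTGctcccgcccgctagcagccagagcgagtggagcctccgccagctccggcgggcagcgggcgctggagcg
Acpp, chr9:104337673-104337972, minus strand: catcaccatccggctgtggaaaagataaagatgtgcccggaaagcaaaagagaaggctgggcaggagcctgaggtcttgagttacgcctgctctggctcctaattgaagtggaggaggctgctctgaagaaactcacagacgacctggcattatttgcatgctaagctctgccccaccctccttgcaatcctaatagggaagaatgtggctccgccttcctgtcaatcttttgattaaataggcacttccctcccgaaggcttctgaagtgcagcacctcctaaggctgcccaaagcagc
Kcnip3, chr2:127522045-127522344, minus strand: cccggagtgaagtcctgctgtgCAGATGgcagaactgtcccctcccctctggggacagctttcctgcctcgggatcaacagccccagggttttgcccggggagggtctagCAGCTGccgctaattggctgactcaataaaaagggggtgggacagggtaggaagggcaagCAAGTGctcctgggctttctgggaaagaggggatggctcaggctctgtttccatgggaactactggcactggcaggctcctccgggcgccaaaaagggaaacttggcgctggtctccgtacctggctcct
Vwa5b2, chr16:20589903-20590202, plus strand: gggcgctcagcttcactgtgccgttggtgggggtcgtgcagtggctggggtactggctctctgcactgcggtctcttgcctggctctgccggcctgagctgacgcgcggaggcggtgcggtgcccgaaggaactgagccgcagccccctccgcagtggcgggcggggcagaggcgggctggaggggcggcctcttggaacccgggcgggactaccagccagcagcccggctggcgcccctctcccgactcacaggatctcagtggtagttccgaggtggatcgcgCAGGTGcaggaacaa

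Kcnip3 holds 3 E-boxes in this window, CAGATG at -228, CAGCTG at -140 and CAAGTG at -80 from the transcript start. Ngfr holds CACTTG at -150 and CAGCTG at -25, Nxph1 holds CAGTTG at -196, and Vwa5b2 holds CAGGTG at +35, after the start. Acpp has no E-box in its window. Across all 32851 promoter windows, 72.3% hold at least 1 CANNTG, 17.2% hold CAGATG (or CATCTG, the same site on the other strand) and 16.3% hold CAGCTG, so these letters are common and their presence is a description only. No window of the 5 genes holds TATAAA (or TTTATA), which 13.6% of all windows do. The 5 windows shown differ in base composition, from 52.0% G and C in Acpp to 71.7% in Ngfr, against a median of 52.7% over all windows.

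At 2 d, all 6 genes were higher in every replicate of WT and of 6S-A Ngn3 cells than in any GFP-only replicate. Over all 23844 genes tested, 13.2% had every WT Ngn3 replicate above every GFP-only replicate, and 16.9% every 6S-A replicate. Since the genes were picked for this pattern, nothing is read from the members' count. The plot of replicate levels shows all 7 groups.

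**Figure D1:**
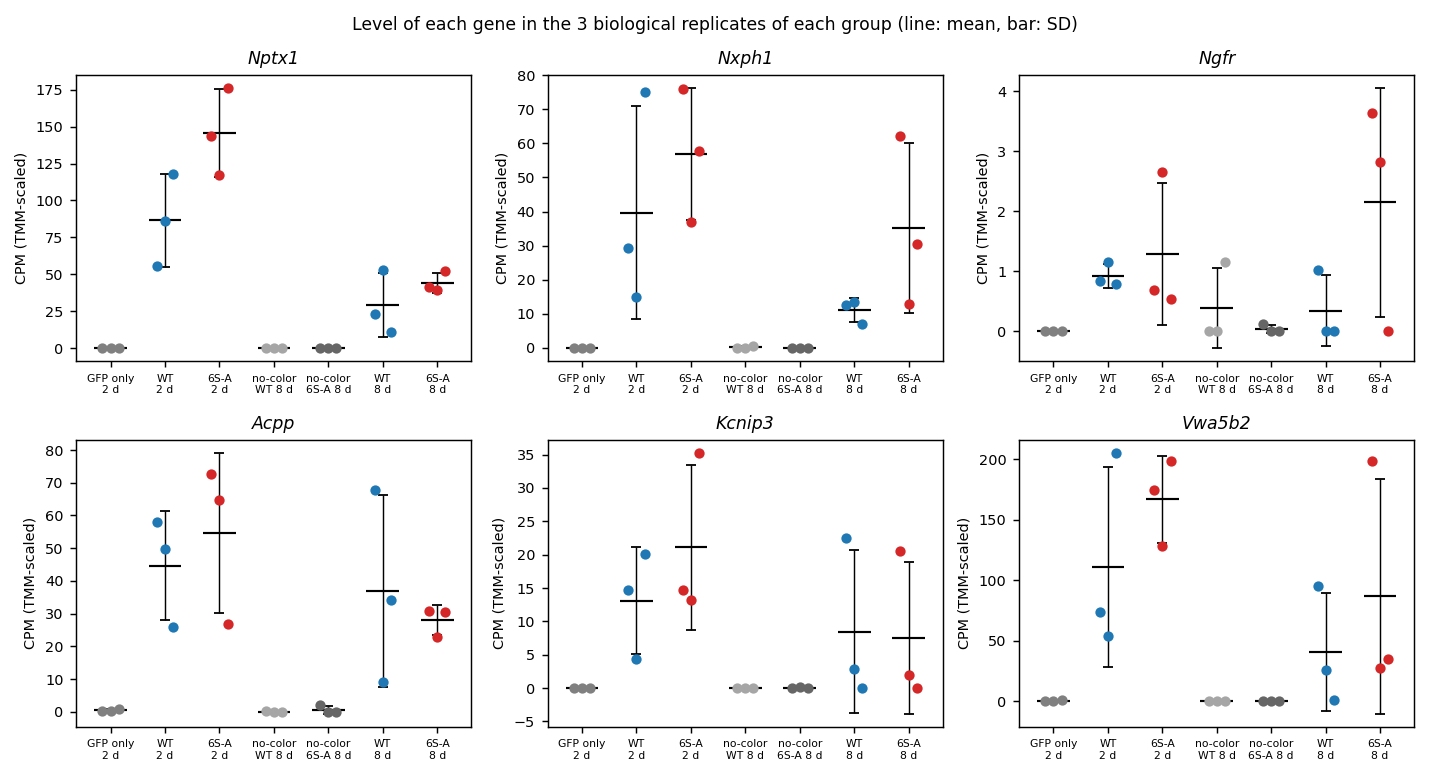
Levels (CPM, TMM-scaled, linear axis from 0) of the 6 genes in the 3 biological replicates of each group, with the mean as a line and the SD as a bar. All 6 genes sit at or near 0 in GFP-only and no-color cells, the 2 d WT and 6S-A replicates overlap for each gene, and the 8 d replicates of Vwa5b2 reach from 0.995 to 199 CPM.

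The secreted synaptic proteins, Nptx1 and Nxph1, had 14 and 4 reads in all GFP-only libraries together. Nptx1 had 2, 10 and 2 reads in the 3 GFP-only replicates (0.0726, 0.382 and 0.0922 CPM). With WT Ngn3 its replicates were at 55.4, 86.0 and 118 CPM, and with 6S-A Ngn3 at 143, 117 and 176 CPM. The lowest Ngn3 replicate was thus far above the highest control, and the 6S-A replicate 2 lay just below the WT replicate 3. The ratio of pooled scaled reads to GFP only was 453 with WT (95% counting interval 270 to 829) and 792 with 6S-A Ngn3 (472 to 1450), and such intervals cover counting error only, since the libraries had no molecular identifiers.

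Nxph1 had 1, 2 and 1 reads in GFP-only cells, the fewest of the 4 genes that had any. It was at 29.2, 15.01 and 74.9 CPM in the WT replicates and at 76.0, 37.0 and 57.6 CPM in the 6S-A replicates. Replicate 2 was the lowest with both proteins, and the WT range spanned most of the 6S-A range. The pooled ratio to GFP only was 742 (289 to 2725) with WT and 1088 (425 to 3995) with 6S-A Ngn3, with wide intervals because the control total was 4 reads.

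Of the surface proteins, Acpp was expressed in all Ngn3 replicates and Ngfr only weakly. Acpp, the phosphatase, had 37 reads in GFP-only cells and was at 58.0, 49.8 and 26.0 CPM with WT and 72.6, 64.6 and 26.9 CPM with 6S-A Ngn3. Its replicate 3 was the lowest with both proteins, and its pooled ratios of 92.8 (67.1 to 132) and 110 (79.6 to 156) were the smallest of the 4 genes with control reads. Ngfr, the neurotrophin receptor, had no read in any GFP-only library. It was at 0.830, 1.15 and 0.787 CPM with WT and 0.687, 2.65 and 0.532 CPM with 6S-A Ngn3, which is at least 23.2-fold and 32.4-fold above a floor of 3 reads over the control group. These levels correspond to 59 and 78 reads in all, so Ngfr was raised from no reads but stayed near silent.

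The intracellular Kcnip3 also had no read in the 18 GFP-only libraries, which together allow a level of up to 0.0398 CPM. Its WT replicates were at 14.7, 4.39 and 20.2 CPM and its 6S-A replicates at 14.7, 13.3 and 35.3 CPM, at least 329-fold and 530-fold above that floor. The WT replicate 2 was the only Ngn3 replicate below 10 CPM. Vwa5b2 had the highest control count of the set, 48 reads. It was at 73.6, 54.3 and 205 CPM with WT and 175, 128 and 199 CPM with 6S-A Ngn3, with pooled ratios to GFP only of 172 (129 to 233) and 266 (200 to 360). One of its WT replicates exceeded all 3 of the 6S-A replicates.

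Set against each other per kilobase of exon, which allows comparison between genes, the 6 kept the same order with both proteins at 2 d. Nptx1 was highest (16.6 ± 6.00 CPM per kb with WT and 27.9 ± 5.71 with 6S-A), followed by Vwa5b2 (14.6 ± 10.8 and 22.02 ± 4.74), Nxph1 (8.35 ± 6.59 and 11.97 ± 4.10), Acpp (6.08 ± 2.27 and 7.46 ± 3.33) and Kcnip3 (3.69 ± 2.26 and 5.94 ± 3.47). Neighbours in this order overlapped in their replicates, except Vwa5b2 and Nxph1 with 6S-A Ngn3. Ngfr stood apart at 0.268 ± 0.0576 and 0.375 ± 0.343 CPM per kb, below every Kcnip3 replicate. On the same scale Neurog3 was at 79.5 ± 37.6 and 82.6 ± 31.3 CPM per kb.

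At 8 d, 4 of the 6 genes, Nptx1, Nxph1, Acpp and Vwa5b2, had every Ngn3 replicate above every no-color replicate with both proteins, as did 3.01% of the 19696 genes tested for WT and 3.6% for 6S-A. Kcnip3 and Ngfr overlapped with the no-color cells. These values also chose the genes, so again nothing is read from the count.

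At 8 d the WT replicates of Nptx1 were at 23.3, 52.8 and 10.7 CPM and the 6S-A replicates at 41.2, 39.3 and 51.9 CPM, and no-color replicates did not exceed 0.367 CPM. Nxph1 was at 12.5, 13.5 and 6.97 CPM with WT and at 62.2, 12.8 and 30.6 CPM with 6S-A Ngn3, against at most 1 read in any no-color replicate. The 6S-A replicate 2 lay within the WT range and the other two above it.

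Acpp at 8 d was at 67.7, 9.02 and 34.0 CPM with WT and 30.9, 22.8 and 30.6 CPM with 6S-A Ngn3, so here the WT values enclosed all 6S-A values. Of its 36 no-color reads, 33 came from 1 library, technical repeat 3 of replicate 1 of the 6S-A no-color cells. Ngfr had 11 reads with WT Ngn3, all in replicate 1, and was at 3.63, 2.82 and 0 CPM with 6S-A Ngn3. Its 4 no-color reads included 2 in the shallowest replicate, equal to 1.16 CPM, so that groups overlapped for both proteins.

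At 8 d both Kcnip3 and Vwa5b2 were highest in replicate 1 with each Ngn3 protein. Kcnip3 was at 22.5, 2.90 and 0 CPM with WT and at 20.5, 2.00 and 0 CPM with 6S-A Ngn3, without reads in replicate 3, the one at passage 5. Vwa5b2 was at 95.5, 26.1 and 0.995 CPM with WT and at 199, 27.3 and 34.9 CPM with 6S-A Ngn3. The summed level of 10 endocrine progenitor markers also varied among the 8 d replicates, from 27.9 to 1767 CPM with WT and from 164 to 2040 CPM with 6S-A Ngn3, and its part in these differences was not tested.

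The single libraries show in how many pools of 50 cells the genes were read. At 2 d, Nptx1, Nxph1, Acpp, Kcnip3 and Vwa5b2 each had at least 1 read in 18 of 18 WT and 18 of 18 6S-A libraries. The libraries of a group are technical repeats of 3 biological replicates, so their counts describe pools and carry no interval. Their lowest, median and highest reads in WT libraries were 79, 253.5 and 905 for Nptx1, 2, 81 and 547 for Nxph1, 60, 140 and 441 for Acpp, 1, 21.5 and 195 for Kcnip3, and 20, 238 and 1617 for Vwa5b2. With 6S-A Ngn3 no library had fewer than 178 reads of Nptx1, 34 of Nxph1, 56 of Acpp, 13 of Kcnip3 or 109 of Vwa5b2. Reads of Nptx1, Acpp and Vwa5b2 were thus spread over all pools, and even Kcnip3 was absent from none.

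**Figure D2:**
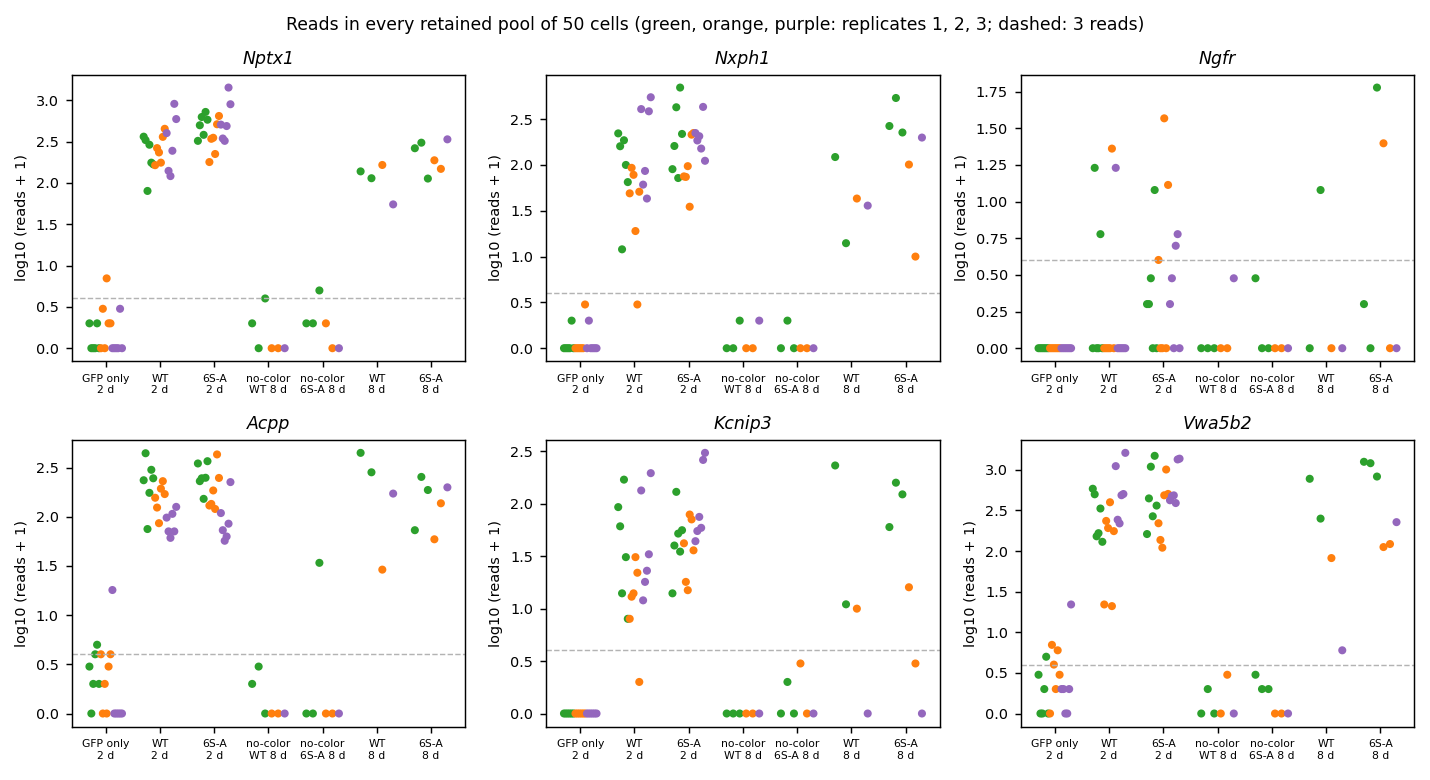
Reads of each gene in every library kept, as log10 (reads + 1), by group, with points colored by biological replicate and the dashed line at 3 reads. Apart from Ngfr, the genes had reads in all 36 Ngn3 libraries of 2 d, while Ngfr had them in 15 of 36, and at most 4 of the 30 control libraries exceed 3 reads for any of the 6 genes.

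At 2 d Ngfr, unlike the other 5, had no reads in some Ngn3 libraries. It had reads in 4 of 18 WT libraries and in 11 of 18 6S-A libraries, and in 0 of 18 GFP-only libraries. At 8 d Ngfr had reads in 4 and Kcnip3 in 8 of the 10 Ngn3 libraries, and the other 4 genes had them in all 10. With more than 3 reads required, the 2 d counts of Ngfr became 4 of 18 WT and 5 of 18 6S-A libraries. The gap between the proteins at 2 d thus lay in libraries with 1 to 3 reads. The 3 libraries richest in Ngfr held 54.0% of its 137 reads at 2 d, and at 8 d they held 98.9% of its 95 reads. At 8 d the 3 richest libraries held 84.3% of the reads of Kcnip3, 67.7% for Vwa5b2, 66.5% for Nxph1, 53.6% for Acpp and 49.7% for Nptx1. In the control libraries of both time points together, reads were found in 17 of 30 for Vwa5b2, 13 of 30 for Nptx1 and for Acpp, 6 of 30 for Nxph1 and 2 of 30 each for Kcnip3 and Ngfr. More than 3 control reads were present in at most 4 of 30 libraries for any of the genes.

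The spread between pools of the same 2 d replicate also set the genes apart. The coefficient of variation, averaged over the 6 Ngn3 replicates, was 28.4% for Nptx1, 34.8% for Acpp, 56.2% for Vwa5b2, 60.6% for Nxph1, 73.2% for Kcnip3 and 175% for Ngfr. Neurog3 itself varied by 40.8%. The median was 23.8% for the 7808 genes at 10 to 100 CPM, where Nxph1, Acpp and Kcnip3 fall, and 15.9% for the 2089 genes at 100 to 1000 CPM, where Nptx1 and Vwa5b2 fall, so that all 5 varied more between pools than a typical gene of their level. Technical repeats 2 and 3 of replicates 2 and 3 lay much closer to each other than other pairs (chi-square per gene of 1.59 to 2.35 in 6 pairs, against 5.21 to 55.7 in 142) and were counted as 1 pool here. Across the resulting 32 Ngn3 pools, after subtracting each replicate's mean log2 level, the correlation between pairs of the 5 genes other than Ngfr ranged from -0.19 to 0.41 (median 0.10), and that of the 6 genes with Neurog3 from -0.03 to 0.36. Within the pools of each protein, the values with Neurog3 for Vwa5b2 were 0.01 in WT and 0.77 in 6S-A pools. In the same order they were 0.00 and 0.67 for Kcnip3, 0.52 and 0.14 for Ngfr, and 0.32 and 0.00 for Nxph1. For Nptx1 they were -0.07 and 0.09, and for Acpp 0.03 and -0.13. The differences between the proteins were not tested. The pools share library preparation and depth with each other, and these values are a description.

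The first comparison that did not select the genes was that of the phosphomutant with WT Ngn3, which asks whether preventing phosphorylation changes their level. At 2 d all 6 genes had a higher mean with 6S-A Ngn3, but none passed edgeR's quasi-likelihood test after Benjamini-Hochberg adjustment (threshold 0.05), and for each gene the replicates of the proteins overlapped. Over all 23844 genes, 0.0126% passed, that is 3 genes, and 1380 had an unadjusted p under 0.05. DESeq2 called 97 genes, none of the 6 among them. Among the 6, the log2 difference ranged from 0.28 to 0.74 with a median of 0.54, against a median of -0.00 over all genes tested and 0.21 over the 1483 genes higher with both proteins, of which 83.1% were above 0. Neurog3 differed by 0.05 ± 0.33 (SE).

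Nptx1 came closest to a difference at 2 d. Its log2 difference was 0.74 ± 0.27 (SE, 95% interval 0.14 to 1.34, edgeR adjusted p = 0.757), and 2 of the 3 6S-A replicates lay above every WT replicate. The log2 difference was 0.68 ± 0.58 for Kcnip3, 0.28 ± 0.38 for Acpp, 0.58 ± 0.51 for Vwa5b2, 0.51 ± 0.53 for Nxph1 and 0.46 ± 0.68 for Ngfr, all with an edgeR adjusted p of 1. The 95% intervals of these 5 genes reached from between -1.02 and -0.57 to between 1.13 and 2.04, so differences in either direction, up to about 4-fold upward for Kcnip3 (4.10), could not be told from none. Without 6S-A replicate 2 the difference of Ngfr turned to -0.60. Restricted to 1 technical repeat per replicate (the first), 4 of the 6 differences turned below 0. Every 6S-A replicate was above every WT replicate for 5.42% of all genes at 2 d and 2.96% at 8 d, and for 0 of the 6 at either time.

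At 8 d the means of Nptx1, Nxph1, Vwa5b2 and Ngfr were higher and those of Acpp and Kcnip3 lower with 6S-A Ngn3, and none of the 6 passed. The share over all 19696 genes was 0%, with 0 genes called by edgeR or DESeq2 and 415 at an unadjusted p under 0.05. Nxph1 had the clearest difference, 1.67 ± 0.71 on the log2 scale (95% interval 0.17 to 3.17, adjusted p = 1), and 2 of its 3 6S-A replicates lay above every WT replicate. For Nptx1 the log2 difference was 0.60 ± 0.65, and for Vwa5b2 it was 1.07 ± 1.10 and turned to -0.44 without 6S-A replicate 1. Acpp (-0.42 ± 0.96) and Kcnip3 (-0.19 ± 1.65) changed sign without WT replicate 1, to 0.34 and 2.42, and Kcnip3 also without 6S-A replicate 2 or 3. Ngfr (2.42 ± 1.95) rested on 84 reads with 6S-A and 11 with WT Ngn3.

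**Figure D3:**
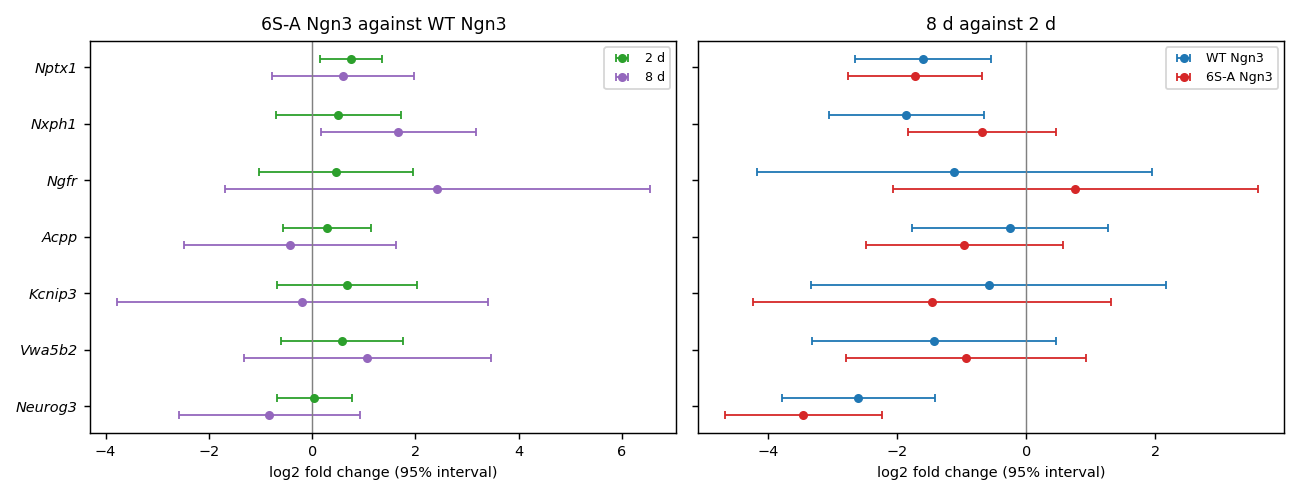
Log2 fold changes of the 6 genes and Neurog3 with 95% intervals from edgeR, for 6S-A against WT Ngn3 at each time point (left) and for 8 d against 2 d with each protein (right). At 2 d all 6 points lie above 0 and 5 intervals reach below it, whereas in the right panel most points lie below 0 and Neurog3 has the lowest values, -2.60 and -3.45.

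Whether the genes stayed on was examined by comparing 8 d with 2 d within each protein. Mean levels were lower at 8 d for 6 of 6 genes with WT and 5 of 6 with 6S-A Ngn3, and none passed edgeR's test. The values of both time points had helped to select the genes, and what this did to the change was not tested. Time cannot be told apart from what else differed between the collections. Over the 19589 genes tested at both time points, 0.168% passed with WT (0.112% lower at 8 d) and 0.562% with 6S-A Ngn3 (0.245% lower). The median log2 change of the 6 was -1.27 with WT and -0.95 with 6S-A, against -0.04 and -0.02 over all genes, and against -0.70 and -0.66 over 1381 genes that were higher with both proteins at 2 d. Of these 1381 genes only 15.1% changed upward with WT and 19.7% with 6S-A, against 47.5% and 48.9% of all genes. Lower values at 8 d were thus usual among genes raised at 2 d, and nothing about the 6 is read from their count.

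Nptx1 changed by -1.60 ± 0.50 (SE, edgeR adjusted p = 0.305) with WT and -1.72 ± 0.50 (adjusted p = 0.127) with 6S-A Ngn3, and its 95% intervals lay below 0 in both. Nptx1 passed with 6S-A under DESeq2, and without the filter on low counts Nptx1 passed with both proteins and Nxph1 and Vwa5b2 with WT. For Nxph1 the change was -1.85 ± 0.58 (adjusted p = 0.296) with WT and -0.69 ± 0.55 with 6S-A Ngn3. Vwa5b2 had values of -1.42 ± 0.90 and -0.94 ± 0.89, Kcnip3 of -0.58 ± 1.29 and -1.46 ± 1.31, and Acpp of -0.26 ± 0.73 and -0.96 ± 0.73. The change of Acpp with WT turned to 0.19 without WT replicate 2 of 8 d and to 0.10 with the first technical repeat only. Ngfr was at -1.11 ± 1.46 with WT and, alone above 0, at 0.76 ± 1.35 with 6S-A Ngn3. Neurog3 fell by 3.45 ± 0.58 with 6S-A Ngn3 (adjusted p = 0.0112, lost without 6S-A replicate 1 of 2 d) and changed by -2.60 ± 0.57 with WT (adjusted p = 0.0767, passing without WT replicate 2 of 8 d). The test of whether the 6S-A difference itself changed between the time points passed for none of the 6 genes (log2 values from -0.88 to 1.87) and for 0% of all genes, where DESeq2 called 4 and 445 had an unadjusted p under 0.05.

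Since Neurog3 itself had lower means at 8 d, the genes were also given relative to it. The ratio of Nptx1 to Neurog3 was 0.787 ± 0.455 with WT and 1.16 ± 0.540 with 6S-A Ngn3 at 2 d, and 1.76 ± 1.42 and 3.53 ± 0.573 at 8 d. The mean ratio was higher at 8 d for 6 of 6 genes with both proteins, as it was for 96% of all genes with WT and 97.6% with 6S-A Ngn3. Every 8 d replicate lay above every 2 d replicate for 4 of 6 genes with 6S-A Ngn3, against 67.1% of all genes, and for 0 of 6 with WT, against 59.8%. As nearly every gene had a higher mean ratio at 8 d, nothing about the 6 is read from it.

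Genes whose pattern over the 21 biological replicates was most like each member's were found by Pearson's r of log2 (CPM + 1) among 19589 genes. Nptx1 was most like Insm1 (r = 0.986), a transcription factor of endocrine progenitors, and Nptx2 (0.976), its close relative. Nxph1 was most like St18 and Rfx6 (both 0.972), and Vwa5b2 was most like Neurod1 and Kcnb2 (0.989 and 0.987), Rfx6 and Neurod1 being transcription factors of the endocrine lineage and Kcnb2 a delayed-rectifier potassium channel. Kcnip3 was most like Insrr (0.979), an insulin receptor-related kinase, and Rab3c (0.974), a vesicle protein, and Acpp was most like the procollagen proteases Adamts2 (0.956) and Adamts14 (0.954). With a pseudocount of 0.1 CPM in place of 1, Insm1, Adamts2, Insrr, St18, Rfx6 and Kcnb2 were still among the first 2, whereas Nptx2 ranked 29, Adamts14 38, Rab3c 4 and Neurod1 6 in likeness to the same member. Ngfr had the weakest likeness, to Ppp1r14c (0.859) and Efcc1 (0.838), which ranked 16 and 12 with the smaller pseudocount, and its r with Neurog3 was 0.458, compared with 0.791 to 0.955 for the other 5. The replicates fall into groups with and without Ngn3, which by themselves give high r for any gene that differs between them.

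Relatives and partners of the members were counted from lists without the members. Among 3 tested genes of the pentraxin and neurexophilin families, Nptx2 rose with both proteins at both time points. It was at 1.83 ± 0.593 CPM in GFP-only cells and at 61.8 ± 13.4 with WT and 79.8 ± 19.5 with 6S-A Ngn3 at 2 d (log2 changes 5.09 ± 0.28 and 5.45 ± 0.28, edgeR adjusted p = 1.7e-07 and 6.9e-08), and at 8 d the log2 changes were 4.30 and 4.74. Over all genes at 2 d, 6.56% rose and 5.23% fell with WT, and 9.43% rose and 8.62% fell with 6S-A Ngn3, while at 8 d 0.741% rose with WT and 1.37% with 6S-A. Nptxr, the pentraxin receptor, fell with 6S-A Ngn3 at 2 d by 0.59 on the log2 scale (adjusted p = 0.0388), and neurexophilin Nxph4 did not pass. None of 10 tested synaptic partners (neurexins, AMPA receptor subunits, neuroligins) passed at 2 d, and at 8 d 1 of 5 rose, the AMPA receptor subunit Gria3 with WT Ngn3 (1.65 ± 0.38, adjusted p = 0.0482). None of the 6 Kv4 channel subunits and related calcium sensors tested at 2 d passed, nor did any of the 4 at 8 d, and neither of the 2 VWA5 relatives tested at 2 d did.

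Of 9 tested phosphatases, nucleotidases and adenosine receptors, related to Acpp in function, 4 rose and 1 fell with both proteins at 2 d. None of the list passed at 8 d. The shares over all genes are those given beside Nptx2. Nt5e, the surface enzyme CD73 that like ACPP makes adenosine from AMP, went from 0.890 ± 0.561 CPM to 12.6 ± 3.60 with WT and 12.8 ± 1.63 with 6S-A Ngn3 (log2 changes 3.79 ± 0.41 and 3.81 ± 0.41, adjusted p = 3.4e-05 and 1.8e-05). The adenosine receptors Adora2a and Adora2b rose by 3.28 and 1.81 with WT Ngn3, the lysosomal phosphatase Acp2 rose by 0.49, and the osteoclast-type phosphatase Acp5 fell by 0.83 on the log2 scale. Over this list the median log2 change at 2 d was 0.39 for WT and 0.70 for 6S-A Ngn3, against 0.01 and 0.02 over all genes.

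Of 11 tested neurotrophins, receptors and adaptors, 3 rose with WT and 4 with 6S-A Ngn3 at 2 d, and 1 fell with both. None of 7 passed at 8 d, and the shares over all genes are the same. Sort1 and Sorcs2, receptors of the sortilin family that bind pro-neurotrophins, rose by 0.98 and 1.82 with WT and by 1.37 and 3.11 with 6S-A Ngn3, and Maged1, an NGFR-binding protein, by 0.67 and 0.89. Rtn4r, a receptor that signals together with NGFR, passed with 6S-A Ngn3 only (3.50 ± 0.72), and its difference between the proteins did not pass. The ligand Bdnf fell, from 23.0 ± 4.98 CPM to 9.05 ± 1.90 and 7.14 ± 4.37. Sorcs2 was one of the 3 genes of the whole table that differed between 6S-A and WT Ngn3 at 2 d (1.29 ± 0.16, adjusted p = 0.0164), but it did not pass without WT replicate 1 or 2, or without any 1 of the 6S-A replicates.

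Markers of duct cells and of other cell types were counted beside these results. Of 9 ductal markers none was higher, and 4 were lower with both proteins at 2 d (Krt19, Epcam, Spp1 and Muc1), 1 with WT (Krt19) and 2 with 6S-A Ngn3 (Krt19 and Muc1) at 8 d. Their summed level at 2 d was 9578 to 10438 CPM with WT and 8748 to 8859 with 6S-A Ngn3, below GFP-only cells. At 2 d, 10 of 10 endocrine progenitor markers were higher with each protein, and 7 of 11 pan-neuronal markers with WT and 9 of 11 with 6S-A Ngn3. Against no-color cells at 8 d, 4 of 10 endocrine progenitor markers were higher with WT and 6 of 10 with 6S-A, and 1 of 11 and 4 of 11 pan-neuronal markers. The shares of all genes that were higher are those given above, 6.56% and 9.43% at 2 d and 0.741% and 1.37% at 8 d. Summed pan-neuronal levels were 9.56 to 15.5 CPM in GFP-only cells, 77.7 to 218 with WT and 210 to 295 with 6S-A Ngn3. The glial list, of interest because NGFR also marks Schwann cells, had none higher at either time. Erbb3 was lower with both proteins at 2 d, and none of the list passed at 8 d. The summed level of the list at 2 d was 112 to 127 CPM in GFP-only cells, 83.3 to 98.4 with WT and 76.7 to 98.2 with 6S-A Ngn3. The defining marker Sox10 was at 0 in 6S-A cells of 2 d and in all 8 d groups but the WT no-color cells. Mesenchymal markers summed to at most 5.21 CPM in any replicate with Col3a1 at 0 throughout, and none of them passed against controls at either time. Acinar markers summed to at most 20.8 CPM with Cpa1, Ptf1a, Amy2a2 and Pnlip at 0, and the elastase Cela1 was lower with WT Ngn3 at 2 d, at 0.563 ± 0.240 CPM against 2.37 ± 0.931 in GFP-only cells (edgeR adjusted p = 0.0129). Endothelial markers summed to 0.876 to 1.49 CPM in GFP-only cells, 1.62 to 5.85 with WT and 2.66 to 10.2 with 6S-A Ngn3 at 2 d. Of them Pecam1, an endothelial adhesion molecule, was higher with 6S-A at 0.749 ± 0.790 CPM against 0.0376 ± 0.0383 (edgeR adjusted p = 0.0197), Cdh5 was at 0 in that group, and their part in the results was not tested. Immune markers summed to at most 16.9 CPM with Cd3e at 0, and none of them passed.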

How the data were processed

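The deposited table holds raw read counts per gene for 77 libraries of 50 sorted cells. According to the study's methods and the submitters' processing notes, the authors aligned reads with GSNAP to mm10 with 92 spike-in sequences and counted them with HTSeq 0.5.3p3 on Ensembl release 81. Whether counting used strand is not given in the sources used here. Rows that name no gene stayed out of library sizes: unaligned reads made up 22.5%, reads in no feature 14.4% and ambiguous reads 8.06% of all reads. Of the 46078 gene IDs, 45143 were matched to a symbol.

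Libraries with under 30% spike-in reads, over 1000000 gene reads and over 10000 detected genes were kept, which 76 of 77 met. Technical repeats were summed, giving 3 biological replicates in each of 7 groups. Each time point's tests covered genes with reads in 5 or more of its kept libraries and used edgeR 4.0.16 (R 4.3.3; TMM scaling, robust quasi-likelihood test, Benjamini-Hochberg adjusted p of 0.05). DESeq2 1.42.0 was an alternative, beside other filters, scalings, library choices and leaving out each replicate. Both Ngn3 groups of 8 d were compared with the 2 no-color groups together. Likeness and pool correlations used log2 (CPM + 1). The edgeR steps were tested on simulated data. Gene models were GENCODE M21 and promoter sequences RefSeq, both on GRCm38. Python 3.11.15 was used with numpy 2.4.6, pandas 2.3.3, scipy 1.17.1 and matplotlib 3.10.9.

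The 6 genes and all gene lists were chosen with earlier results of these data known, some genes of the lists are not reported here, and the same samples entered every comparison. The named relatives and markers were those of the lists that passed, together with the defining markers. For likeness, the 2 genes with the highest Pearson's r were named. What the replicate numbers stand for is not given in the labels, so p-values measure the spread between these samples.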

Additional observations from a re-analysis of the deposited data

Results flagged for a closer look

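Libraries of the 8 d groups were checked for single values far from the rest (Dixon's test on groups of 4 to 6 libraries, which are technical repeats of 3 replicates). Of 27 sets of gene and group, 9 had such a value. Chance gives about 1 in 20 for independent, normally distributed values, which these are not, and in 5 of the 9 sets all other libraries were at 0, where any read meets the criterion, so nothing is read from the count. Among the Ngn3 libraries, Nxph1 reached 135 CPM (537 reads) in technical repeat 2 of replicate 1 of 6S-A Ngn3, with the next library at 43.9 CPM. Kcnip3 reached 46.5 CPM (231 reads) in repeat 1 of replicate 1 of WT Ngn3, with the next at 2.97 CPM. Ngfr was at 2.29 CPM (11 reads) in repeat 2 of the same replicate and at 0 in the others.

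In the no-color libraries the values rested on few reads, apart from Acpp. Acpp was at 4.60 CPM (33 reads) in repeat 3 of replicate 1 of the 6S-A no-color cells and at 0 in the other 5 libraries. Nptx1 was at 0.473 CPM (3 reads) in 1 WT no-color library and Nxph1 at 0.212 CPM (1 read) in 1 6S-A no-color library. Ngfr was at 0.834 CPM in 1 WT and at 0.331 CPM in 1 6S-A no-color library, with 2 reads each. Neurog3 was at 0.846 CPM (4 reads) in 1 WT no-color library.

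The library left out for its depth, repeat 1 of replicate 2 of WT Ngn3 at 8 d, had 849278 gene reads. It held Nptx1 at 28.3 CPM (24 reads), Acpp at 34.1 CPM (29 reads) and Vwa5b2 at 4.71 CPM (4 reads), all above the limit that a count of 0 allows (3.53 CPM). The highest no-color libraries had 0.558, 4.60 and 0.465 CPM of these genes. The library left out had 0 reads of Nxph1 and of Kcnip3, and 2 reads of Ngfr (2.35 CPM, below 3.53 CPM).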

How the results depend on the processing

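Over the other settings tried, including the one without passage 5 (chosen after the data were seen), log2 changes of the 6 genes in the comparisons with controls reversed in 2 cases, both of Ngfr at 8 d with WT Ngn3. In the other comparisons, the interaction apart, 310 kept direction and call, 13 reversed and 7 gained the threshold. The cause of these shifts was not tested. Ngfr and the control values of all 6 genes rested on few reads.

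With the first technical repeat only, calls over all genes were 1216 and 1677 (2 d, WT and 6S-A against GFP only), 63 (2 d, 6S-A against WT), 111 (8 d WT against no-color), 0 (WT, 8 d against 2 d) and 5 (6S-A). The 2 d 6S-A difference became -0.32 for Nxph1, -0.94 for Ngfr, -0.52 for Kcnip3, -0.49 for Vwa5b2 and -0.37 for Neurog3, Ngfr at 8 d with WT became -3.15 and Acpp with WT over time 0.10. DESeq2 called 97 (2 d, 6S-A against WT), 545 and 822 (8 d against no-color), 251 and 692 (over time) and 4 (interaction). Without a low-count filter these were 100, 724 and 1044, 370 and 630, and 26, with 8 for 6S-A against WT at 8 d. Members lower at 8 d were then 3 with WT and 1 with 6S-A, and 1 with 6S-A by DESeq2. Own no-color cells alone gave 49 and 115, all 77 libraries 9 (WT over time), and leaving out passage 5 gave 11 and 230 (over time).

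Leaving out each replicate gave 0 to 5 calls for 6S-A against WT at 2 d and 0 to 2 at 8 d, 67 to 230 and 192 to 307 at 8 d against no-color, and 0 to 33 and 3 to 162 over time. The 6S-A difference ranged at 2 d from -0.60 to 0.83 for Ngfr and -0.31 to 0.50 for Neurog3, and at 8 d from -0.88 to 0.34 for Acpp, -3.07 to 2.42 for Kcnip3, -0.44 to 2.70 for Vwa5b2 and -1.26 to 0.24 for Neurog3. Ngfr with WT at 8 d ranged from -3.12 to 3.89 and Acpp with WT over time from -1.02 to 0.19.

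With the replicate number as a block (replicate block), calls were 4291 (2 d WT against GFP only), 147 (2 d, 6S-A against WT), 472 and 704 (8 d against no-color), and 325 and 779 (over time). Acpp at 8 d became 0.16 for 6S-A against WT, and 2 members, Nptx1 and Kcnip3, were lower over time with 6S-A. The numbers were not taken as pairs: over all genes tested, the lowest correlation of same-numbered samples was 0.0436 at 2 d and 0.069 at 8 d. Of 4 gene selections tried after the calls were known, 1 (over 10 CPM) exceeded 0.1 in every pair at both times, and the labels do not say what a number marks.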

Other observations

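Low counts in control cells were common among the genes tested. Of the 482 genes at 2 d without a read in any GFP-only library, which take in Ngfr and Kcnip3, 113 (23.4%) were higher with both proteins. Of the 10176 genes with at most 100 GFP-only reads, which take in all 6 members, 569 (5.59%) were. Tested genes needed reads in 5 or more kept libraries of the time point. The 482 genes could meet this only through Ngn3 libraries, so nothing is read from their share. Within the 32 pools of 2 d, the pairs of members with the highest correlations were Nptx1 and Nxph1 (r = 0.41), Kcnip3 and Vwa5b2 (0.40) and Nxph1 and Vwa5b2 (0.38). Nptx1 and Acpp, the members that varied least between pools, had r = -0.17.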
